A study of Mus musculus with 18 samples.

Results

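Kidney taken 24 h after D-galactosamine (GalN) was compared with sham kidney, taken 24 h after saline. The comparison rests on 6 of the 18 arrays of the series, the 3 labelled kidney 24 hour and the 3 labelled kidney sham. It covers every probe set named for exactly 1 gene, with the set of highest mean over the 18 arrays standing for its gene. Animals were male C57BL6 mice, an inbred strain, whose age the labels do not give. The 24 h group received a single intraperitoneal injection of GalN at 4.5 g/kg and the sham group an injection of saline. Another kidney group received the same dose of GalN and was taken at 48 h, and liver was taken from the same 3 treatments. No sham group was taken at 48 h. The series was titled as a study of kidney dysfunction in massive liver necrosis.

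GalN is an amino sugar that hepatocytes take up and convert to uridine conjugates, which drains their uridine nucleotides and halts RNA and protein synthesis in the liver. The kidney received the same systemic dose, so a direct action of GalN on kidney and an effect of the failing liver cannot be told apart in this design. Along the nephron, the proximal tubule reclaims most filtered solutes and secretes organic anions. The distal segments and the collecting duct set the final salt and water content of urine through the epithelial sodium channel, the thiazide-sensitive cotransporter and aquaporin 2. Kidney failing together with the liver is known in patients for intense sodium retention.

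Each array gave a log2 gcRMA value per probe set, and all levels and differences below are on that log2 scale. The lowest value of the table was 2.21, and 48.3% to 48.7% of the values of a kidney array lay within 0.1 of it. Of 18193 genes, 11990 lay above the array median in at least 3 of the 9 kidney arrays and were tested. The test was limma with adjusted p under 0.05 called, each group holding 3 arrays. A fold is written as "at least" where an array of the lower group read within 1 of the floor or gave a background value recurring exactly between arrays. The p-values measure the spread between these arrays, and the protocol leaves unclear whether RNA of 3 mice was combined before hybridization. Whole kidney was extracted, so fewer cells of a type and less RNA per cell cannot be told apart.

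The kidney label held against its markers. Slc34a1, Lrp2, Cubn and Miox of the proximal tubule read at least 12.56 in all 6 kidney arrays. They read at most 4.55 in the 6 liver arrays of the same times. Slc5a2, also of the proximal tubule, separated the tissues less, at 12.98 to 13.36 in kidney and 9.06 to 10.08 in liver. Umod and Slc12a1 of the thick ascending limb read at least 13.73 in kidney and at most 3.07 in liver. Alb, the main hepatocyte transcript, read 7.78 to 8.44 in kidney and at least 16.22 in liver. It did not differ between 24 h and sham kidney (difference -0.13 ± 0.20 SE). Ttr, listed with the hepatocyte markers, was high in both tissues, at 14.9 to 15.55 in kidney and 16.33 to 16.48 in liver. Nphs1, a podocyte marker, read 3.98 to 5.85 in kidney, and the lymphocyte markers Cd79a and Cd3e read 2.21 to 2.59 in all 6. The 24 h A array stood apart within its group. It correlated across probe sets with 24 h B and C at r = 0.9939 and 0.9938, against 0.9969 between B and C. The 24 h C array correlated with the sham arrays at 0.9947 to 0.995. The 3′ minus 5′ difference of the Gapdh control sets was 0.17 to 0.23 in sham and 0.10 to 0.27 at 24 h. That of pyruvate carboxylase was 3.56 to 3.66 in sham and 3.71, 3.25 and 3.12 in 24 h A, B and C.

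At 24 h, the injury marker Lcn2, the 3 subunits of the epithelial sodium channel and the fatty acid hydroxylase Cyp4a14 were higher, and Idi1 of sterol synthesis and Slc51a of bile acid export were lower. Of 11990 genes tested, 636 (5.30%) were called, 265 higher (2.21%) and 371 lower (3.09%). These shares are the background for every count of list members below. At least 2-fold differences were found in 113 of the called genes (0.942% of those tested). The 24 h and sham arrays did not overlap in 27.0% of all genes tested. An unadjusted p under 0.05 was reached by 2853 genes (23.8%). Of the calls, 41.7% were higher, a share that was 51.9% after quantile normalization (607 calls) and 30.4% after centring each array on its median (899 calls). The median difference over all genes was 0.00, and centring moved it to -0.05.

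The number of calls depended strongly on single arrays. Without sham B, 15 genes were called, 14 of them among the 636. The count was 109 without sham A, 115 without 24 h B, 198 without sham C and 263 without 48 h B. It was 432 without 24 h A, the array that stood apart. With the 6 compared arrays alone it was 78. In each of the 9 fits that left out 1 kidney array, 13 genes were called, and 227 were called in at least 5. For single genes, the number of these 9 fits in which the gene was called is given below as its fits. Over these fits and the other alternatives, none of the called genes named here changed direction. Genes chosen for groups without overlap cannot change direction when 1 array is left out, so for them this was fixed in advance. The highest adjusted p of the called genes named here, with 1 array left out, was 0.154, that of Ifit1.

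**Figure D1:**
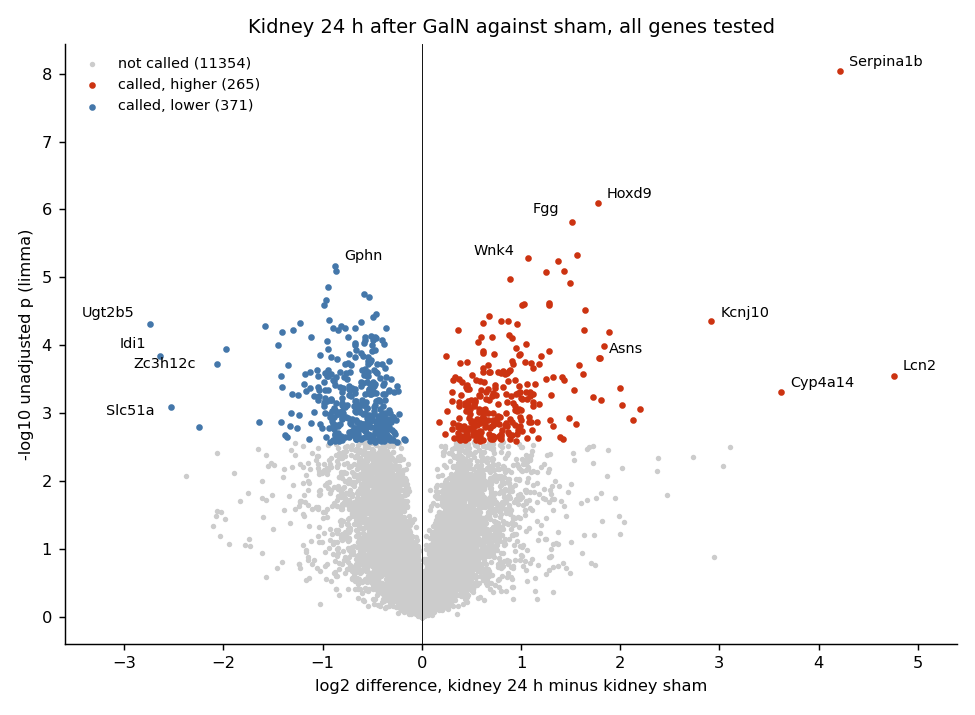
Log2 difference between kidney at 24 h and sham kidney (x axis) against -log10 of the unadjusted limma p (y axis) for the 11990 genes tested, with called genes coloured by direction. Serpina1b, Lcn2 and Cyp4a14 lie farthest to the right, and Ugt2b5, Idi1 and Slc51a farthest to the left.

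Among the 11990 genes tested, the largest called rise was that of Lcn2. It encodes lipocalin 2, a siderophore-binding protein used as a marker of tubular injury. In the order A, B and C, the sham arrays read 4.62, 4.46 and 2.70 and the 24 h arrays 8.77, 9.39 and 7.90. Every 24 h array was far above every sham array, and the rise was at least 27.1-fold (log2 difference 4.76 ± 0.72 SE, adjusted p = 0.0225, 6 of 9 leave-one-out fits). Serpina1b, of the alpha-1-antitrypsin family of protease inhibitors, read 4.11, 4.06 and 4.06 in sham and 8.02, 8.60 and 8.25 at 24 h. It rose at least 18.6-fold (4.21 ± 0.14 SE, adjusted p = 1.10e-04) and was called in all 9 leave-one-out fits. The other probe set of Serpina1b rose by 3.93. Both sets are of a type that can bind transcripts of near-identical Serpina1 copies, so the rise cannot be assigned to 1 copy.

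Cyp4a14, a fatty acid omega-hydroxylase controlled by PPAR alpha, rose 12.3-fold, from 9.0, 7.29 and 8.33 to 11.22, 11.72 and 12.56 (3.62 ± 0.60 SE, adjusted p = 0.0253, 5 fits). Dio1, the deiodinase that makes active thyroid hormone, went from 7.96, 7.26 and 7.93 to 9.67, 9.67 and 9.33 (3.57-fold, adjusted p = 0.0181, 7 fits). Asns, asparagine synthetase, read 6.29, 6.65 and 6.75 in sham and 8.05, 8.81 and 8.23 at 24 h. The 24 h arrays of both genes lay more than 1 above every sham array. Asns rose 3.48-fold (adjusted p = 0.0200, 7 fits), and its other probe set rose by 1.5. Hoxd9, a homeobox gene of the posterior body axis, was among the tightest rises, from 8.89, 8.70 and 9.04 to 10.55, 10.65 and 10.76 (3.42-fold, adjusted p = 0.00484, 9 fits).

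Slc25a25, a calcium-regulated ATP carrier of mitochondria, read 8.29, 7.47 and 7.63 in sham and 9.58, 10.10 and 10.10 at 24 h. It rose 4.37-fold (adjusted p = 0.0373, 1 fit), and its other sets differed by 1.37 and 0.00, so its sets disagreed. Pla2g7, which inactivates platelet-activating factor, rose at least 3.45-fold, from 6.06 to 6.93 in sham to 8.33 to 8.44 at 24 h (adjusted p = 0.0199, 7 fits). Cables1, an adaptor of cyclin-dependent kinases, and Smarcd3, a subunit of SWI/SNF chromatin remodelling complexes, rose at least 4.61-fold and 4.05-fold. The remaining large rises, of 3.31-fold to 4-fold, were those of Tmem37, Ier5l, Vstm5 and Acnat2, given as lower bounds for all but Tmem37. Cables1, Smarcd3, Tmem37, Vstm5 and Acnat2 were called in 2 to 4 of the leave-one-out fits and Ier5l in 7.

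Among the 11990 genes tested, the largest called fall was that of Ugt2b5, a UDP-glucuronosyltransferase that conjugates steroids and drugs. It read 5.88, 5.33 and 5.87 in sham and 2.92, 3.02 and 2.92 at 24 h, where all arrays were near the floor (at least 6.68-fold lower, -2.74 ± 0.32 SE, adjusted p = 0.0166, 8 fits). Slc51a, a subunit of the basolateral exporter of bile acids and steroids, read 10.85, 10.45 and 10.57 in sham and 9.10, 7.12 and 8.08 at 24 h. The 24 h arrays spread over almost 2 log2 units and all lay below sham (5.76-fold lower, adjusted p = 0.0307, 2 fits). Zc3h12c, an RNA-binding zinc finger gene, fell 4.19-fold, from 7.89, 8.32 and 8.86 to 6.44, 5.85 and 6.57 (adjusted p = 0.0206, 7 fits). Its other set differed by -0.46 and was not called. Ftcd, an enzyme of histidine breakdown, fell 3.92-fold, from 7.94, 7.98 and 7.46 to 6.37, 5.46 and 5.63 (adjusted p = 0.0188, 6 fits).

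Akr1d1, the 5-beta-reductase of steroid and bile acid metabolism, read 10.78, 10.46 and 10.50 in sham and 8.76, 9.03 and 9.21 at 24 h (2.99-fold lower, adjusted p = 0.0166, 8 fits). Agps, of peroxisomal ether lipid synthesis, fell 2.68-fold and Ggct, an enzyme of glutathione turnover, 2.66-fold (adjusted p = 0.0225 and 0.0167). Ggct was called in 8 leave-one-out fits and Agps in 6. Ddo, D-aspartate oxidase, fell 2.67-fold (2 fits), and Fnip2, a folliculin partner, 2.55-fold (7 fits). Hepacam2, an adhesion molecule gene of intercalated cells, fell at least 4.73-fold, from 4.78 to 6.08 in sham to 2.98 to 3.43 at 24 h (adjusted p = 0.0400, 1 fit). Btnl9, Ccdc122 and Rbm33 fell 3.12-fold, 2.73-fold and 2.56-fold, and 2 of them, Btnl9 and Rbm33, were called in 1 leave-one-out fit. Another set of Rbm33 differed by 0.03. Atf4, the central transcription factor of the amino acid stress response, fell 2.66-fold on its set of highest mean, from 9.77, 10.08 and 9.82 to 8.80, 8.21 and 8.43 (adjusted p = 0.0251, 5 fits). Its other sets differed by -0.26 and 0.57 and were not called, so no direction is given for the gene as a whole.

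**Figure D2:**
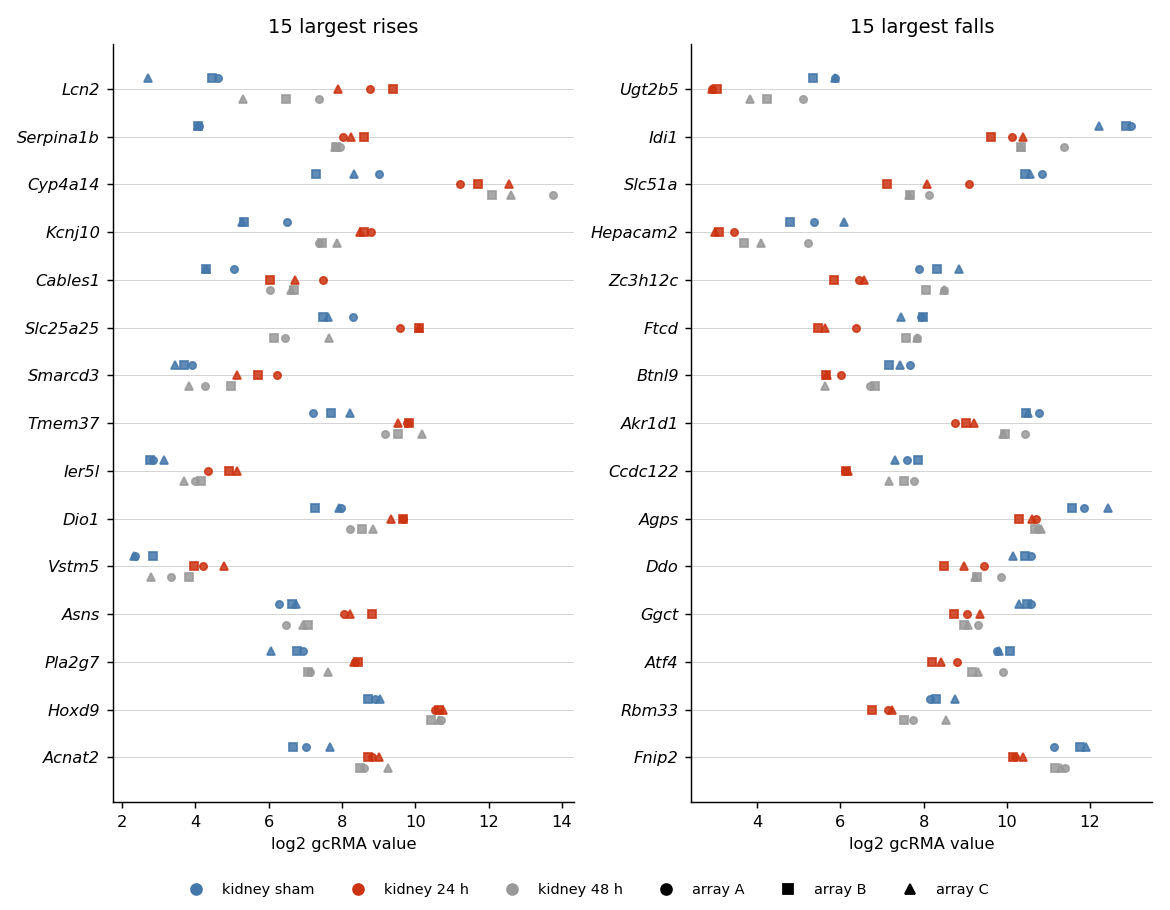
Log2 gcRMA value (x axis) of the 15 genes with the largest rises and the 15 with the largest falls in each of the 9 kidney arrays, coloured by group and shaped by array letter. Sham and 24 h points do not overlap in any row, which was a condition for choosing these genes. The 48 h points of Serpina1b (7.82 to 7.94) and Hoxd9 (10.43 to 10.70) stayed above sham, and those of Ftcd (7.58 to 7.83) and Zc3h12c (8.06 to 8.50) lay at the level of sham.

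Some distal nephron genes rose at 24 h. Of 19 tested genes of distal salt transport and its regulators, 5 rose, 1 fell and 13 were not called. Over all genes, 2.21% were called higher and 3.09% lower. The median difference of the 19 was 0.45 against 0.00 over all genes. Scnn1a, Scnn1b and Scnn1g, which encode the alpha, beta and gamma subunits of the epithelial sodium channel, were all among the 5. The rank product, a second test, called 2 of the 19 higher, Scnn1b and Kcnj10 (adjusted p = 0.0198 and 0.000714). It did not call Scnn1a, Scnn1g or Wnk4 (adjusted p = 0.0880, 0.152 and 0.0792). The alpha subunit read 8.33, 8.65 and 8.89 in sham and 9.92, 9.58 and 9.51 at 24 h (2.07-fold, 1.05 ± 0.17 SE, adjusted p = 0.0253, 5 fits). The beta subunit read 6.76, 6.0 and 6.49 in sham and 8.24, 7.72 and 7.73 at 24 h (2.79-fold, 1.48 ± 0.28 SE, adjusted p = 0.0361, 2 fits). The gamma subunit read 7.84, 8.07 and 7.62 in sham and 8.85, 8.65 and 8.68 at 24 h (1.84-fold, 0.88 ± 0.13 SE, adjusted p = 0.0223, 6 fits). For each subunit the lowest 24 h array lay above the highest sham array, by the least margin for Scnn1g.

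Upstream and beside the channel, Wnk4, a kinase that regulates distal salt cotransport, rose 2.1-fold, from 9.61, 9.59 and 9.45 to 10.74, 10.45 and 10.66 (adjusted p = 0.0100, 9 fits). Kcnj10, a basolateral potassium channel of the distal convoluted tubule, rose 7.56-fold, from 6.50, 5.34 and 5.28 to 8.80, 8.60 and 8.48 (2.92 ± 0.33 SE, adjusted p = 0.0166, 8 fits). Its channel partner Kcnj16 differed by 0.21 (adjusted p = 0.480). The member that fell was Atp1b1, the beta subunit of the sodium pump, by 0.38, from 15.99 to 16.09 in sham to 15.59 to 15.71 at 24 h (adjusted p = 0.0223, 5 fits). After quantile normalization Atp1b1 was not called, and 3 other sets of this gene differed by 0.05, -0.11 and -0.19. Slc12a3, the thiazide-sensitive cotransporter, was higher in all 3 24 h arrays (11.73, 12.54 and 12.38 against 11.41, 11.59 and 10.53) and was not called (adjusted p = 0.164). Sgk1, a kinase induced by aldosterone and by glucocorticoids, read 12.82, 13.05 and 12.30 against 11.85 to 11.95 in sham and was not called (difference 0.82 ± 0.46 SE, adjusted p = 0.332). Nr3c2, the mineralocorticoid receptor, differed by -0.01.

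**Figure D3:**
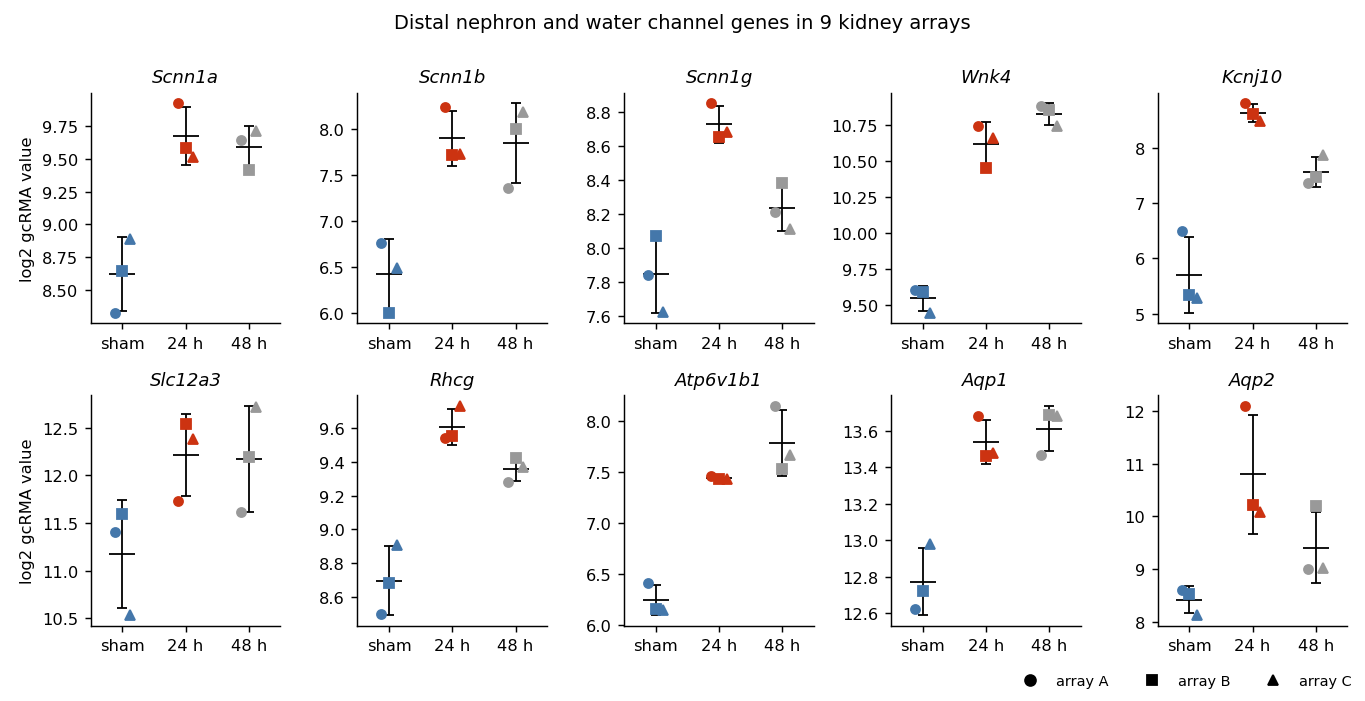
Log2 gcRMA value (y axis) of 10 genes in sham, 24 h and 48 h kidney arrays, with the mean and SD of each group drawn as black bars. The 24 h points of Scnn1a, Scnn1b, Scnn1g, Wnk4, Kcnj10, Rhcg, Atp6v1b1 and Aqp1 sit above all sham points, and Aqp2 reached 12.10 in 24 h A.

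The promoters of 2 of these subunits are shown because Scnn1b and Scnn1g are neighbours on chromosome 7 and rose together. Each window runs 5′ to 3′ from 250 bases before to 50 bases after the annotated start in RefSeq (build GRCm38.p6), and capitals mark GGGCGG or its reverse complement, the GC box core.
Scnn1b (chr7:121864788-121865087, plus strand): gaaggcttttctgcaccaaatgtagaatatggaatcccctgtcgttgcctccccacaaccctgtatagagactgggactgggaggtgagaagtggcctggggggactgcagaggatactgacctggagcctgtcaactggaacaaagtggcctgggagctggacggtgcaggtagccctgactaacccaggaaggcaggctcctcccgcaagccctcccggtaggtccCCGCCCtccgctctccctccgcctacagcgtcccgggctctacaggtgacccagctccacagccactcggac
Scnn1g (chr7:121734229-121734528, plus strand): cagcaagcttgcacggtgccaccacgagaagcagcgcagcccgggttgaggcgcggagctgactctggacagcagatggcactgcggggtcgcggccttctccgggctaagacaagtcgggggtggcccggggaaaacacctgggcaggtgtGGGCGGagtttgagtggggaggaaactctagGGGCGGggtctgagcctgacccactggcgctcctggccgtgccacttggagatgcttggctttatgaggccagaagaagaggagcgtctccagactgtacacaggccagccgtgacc
The Scnn1b window held 1 match and the Scnn1g window 2. Such a match was found on either strand in 35.7% of all 32851 promoter windows, so its presence here is a description only. AGAACA, a glucocorticoid receptor half-site, occurred in 19% of all windows.

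Genes of water handling mostly missed the threshold. Of 12 tested genes of aquaporins and vasopressin action, 1 was called by limma, with a median difference of 0.61 (3 were called after quantile normalization or centring). The called gene was Aqp1, the water channel of the proximal tubule and thin limb, which read 12.62, 12.72 and 12.98 in sham and 13.68, 13.46 and 13.48 at 24 h (1.70-fold, adjusted p = 0.0223, 6 fits). Aqp2, the vasopressin-regulated water channel, read 8.61, 8.53 and 8.12 in sham and 12.10, 10.22 and 10.08 at 24 h. All 3 24 h arrays exceeded sham by more than 1, with 24 h A far above the others, and Aqp2 was not called (difference 2.38 ± 0.58 SE, adjusted p = 0.0651). The vasopressin receptor Avpr2 read 8.88 in 24 h A and 7.72 and 7.14 in B and C, against 6.34 to 6.81 in sham (adjusted p = 0.129). Slc14a2, the urea transporter of the inner medulla, read 10.21, 8.82 and 8.82 against 7.52 to 7.73 in sham (adjusted p = 0.0564). The rank product test called Aqp2 and Slc14a2 higher (adjusted p = 0.000714 and 0.0120), and it did not call Aqp1 or Avpr2.

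Elf5, a transcription factor of principal cells, read 6.90 in 24 h A and 2.21 to 2.56 in the other 24 h and sham arrays. Fxyd4, a sodium pump regulator of the collecting duct, read 11.07 in 24 h A and 8.88 to 9.64 in those arrays. The readings of Aqp2, Avpr2, Slc14a2, Elf5 and Fxyd4 were thus highest in the array that stood apart. Among the 24 h arrays, those of Scnn1a, Scnn1b, Scnn1g, Wnk4, Kcnj10 and Aqp1 were also highest in 24 h A, by smaller margins. Slc12a3 and Rhcg read lowest there. The part of the sampled kidney region in all these differences was not tested. Without 24 h A, 4 genes of the distal salt list and 2 of the aquaporin list were called. The distal salt list had 2 calls without 24 h B, 2 without sham A and 1 without sham B, and the aquaporin list had 0 without each of these arrays. Scnn1g, Wnk4 and Kcnj10 remained called without 24 h A, and Scnn1a and Scnn1b did not.

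Intercalated cells secrete acid or base and ammonium in the collecting duct. Of 14 tested genes of these cells, 3 rose, 1 fell and 10 were not called (5.30% of all genes were called), with a median difference of 0.09. The rank product called 0 of the 14. The ammonia channels Rhcg (8.50, 8.68 and 8.91 in sham, 9.54, 9.55 and 9.73 at 24 h) and Rhbg (8.12, 7.96 and 7.74 in sham, 8.71, 8.45 and 8.73 at 24 h) rose 1.87-fold and 1.61-fold (adjusted p = 0.0169 and 0.0400). Atp6v1b1, a proton pump subunit of intercalated cells, rose 2.30-fold, from 6.41, 6.16 and 6.15 to 7.46, 7.43 and 7.43 (adjusted p = 0.0198, 6 fits). Another proton pump subunit, Atp6v0d2, fell by 0.48, from 8.10 to 8.17 in sham to 7.64 to 7.69 at 24 h (adjusted p = 0.0300, 3 fits). Outside the list, 3 further subunits looked up after the values were seen also fell, Atp6v1b2 (-0.98), Atp6v0e2 (-0.80) and Atp6v1g1 (-0.54). Slc26a4, the pendrin exchanger, and Slc4a1, the basolateral bicarbonate exchanger, differed by -0.65 and -0.52 and were not called. Of the 14, 3 were called without 24 h A, 2 without 48 h B, 2 without sham A, 1 without 24 h B, 1 without sham C and 0 without sham B.

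Among 30 tested markers of tubular injury, 5 rose (against 2.21% of all genes), none fell and 25 were not called, with a median difference of 0.33. Besides Lcn2, Fgg, the fibrinogen gamma chain, rose 2.86-fold, from 8.40, 8.27 and 8.03 to 9.65, 9.71 and 9.89 (1.52 ± 0.10 SE, adjusted p = 0.00618, 9 fits). Its partner chains did not pass: Fga differed by 0.66 (adjusted p = 0.307), and Fgb read 2.38 to 2.68 in all 6 arrays. Tnfrsf12a, a TNF family receptor bound by TWEAK, rose at least 2.60-fold, from 6.54, 6.32 and 6.32 to 7.83, 7.93 and 7.56 (adjusted p = 0.0100, 9 fits). Lgals3, galectin 3, rose 2.43-fold, from 9.96, 9.68 and 9.51 to 10.96, 11.29 and 10.75 (adjusted p = 0.0192, 8 fits). Krt7, a simple epithelial keratin, rose 2.02-fold (adjusted p = 0.0427). The list had 6 calls without 24 h A, 3 without 24 h B, 3 without sham A and 2 without sham B. Krt18 was higher by 1.72, with 10.05 in 24 h A and 8.59 and 8.70 in B and C against 7.04 to 7.65 in sham, and was not called by limma (adjusted p = 0.0534), though the rank product called it (adjusted p = 0.0114).

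Havcr1, which encodes KIM-1, the classical marker of proximal tubule injury, read 2.90 to 3.11 in all 6 arrays and did not rise. Clu, clusterin, read 13.40 to 14.11 at 24 h and 13.55 to 14.08 in sham. Cdkn1a, the cell cycle inhibitor p21, read 7.33, 7.23 and 6.78 against 6.36 to 6.45 in sham and was not called (difference 0.72 ± 0.18 SE, adjusted p = 0.0668). Of 18 tested p53 target genes, 1 rose, a share near the 5.30% of all genes called: Aen, an apoptosis-enhancing nuclease, from 6.47 to 6.49 in sham to 7.51, 6.91 and 7.41 at 24 h (1.74-fold, adjusted p = 0.0461, 1 fit). The list had 0 to 3 rises over the alternatives, and 0 without 24 h A, each of the sham arrays or each of the 48 h arrays. Zmat3 differed by 0.71 and was not called (adjusted p = 0.0543).

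Of 19 tested acute phase genes, 3 rose: Lcn2, Fgg and Cd14, a receptor of bacterial endotoxin, which went from 4.08 to 4.11 in sham to 4.59 to 4.85 at 24 h (at least 1.53-fold, adjusted p = 0.0198, 6 fits). Hp, haptoglobin, read 3.83, 3.56 and 2.92 in sham and 7.95, 8.52 and 2.69 at 24 h, so that its groups overlapped (adjusted p = 0.352). The rank product called Hp and Lrg1 higher (adjusted p = 0.000714 and 0.0233). The list had 1 limma call without 24 h B, sham A or sham B. Serpina3n and Lrg1 also read highest in 24 h B (7.21 and 7.92) and at or near sham in 24 h C (2.79 and 4.78). A fat cell marker also varied among the arrays. Adipoq, the adipocyte hormone adiponectin, read 8.01, 7.07 and 3.75 in sham, 8.42, 9.23 and 2.22 at 24 h and 2.21, 11.41 and 9.42 at 48 h. The summed level of the 5 named adipocyte markers (of 7 listed) was 12.71 to 14 in sham and 11.92 to 14.54 at 24 h. In sham A and 24 h A, where Adipoq read 8.01 and 8.42, Hp read 3.83 and 7.95. The part of fat around the kidney in Hp, Serpina3n, Lrg1 and Lcn2 was not tested. Lcn2 read 7.90 in 24 h C, where Adipoq read 2.22, and both genes read lowest in the C array within sham and within 24 h.

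**Figure D4:**
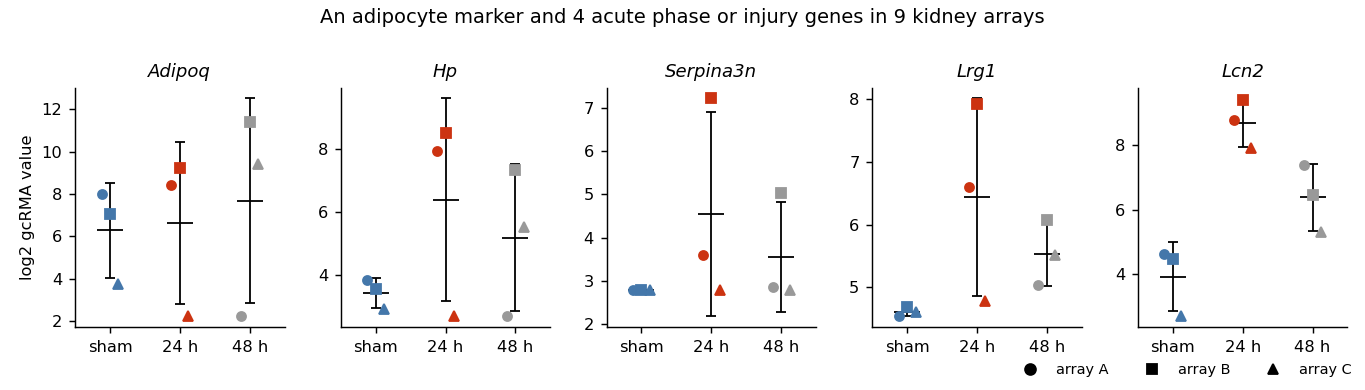
Log2 gcRMA value (y axis) of the adipocyte marker Adipoq and of Hp, Serpina3n, Lrg1 and Lcn2 in 9 kidney arrays, with the mean and SD of each group as black bars. Hp and Serpina3n were low in 24 h C (2.69 and 2.79), where Adipoq was 2.22, and Lcn2 read 7.90 there, its lowest 24 h value.

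Genes of sterol synthesis were lower at 24 h. All 21 tested members of the list of sterol synthesis and uptake lay lower by sign (also after quantile normalization and centring), 4 of them fell and 17 were not called. After quantile normalization 5 fell and after centring 7. The median difference was -0.55 against 0.00 over all genes, and 16 members reached an unadjusted p under 0.05, against 23.8% of all genes. Idi1, the isomerase that makes the reactive isoprenoid unit, read 13, 12.87 and 12.22 in sham and 10.13, 9.63 and 10.39 at 24 h. It was 6.25-fold lower (-2.64 ± 0.36 SE, adjusted p = 0.0198, 6 fits), and its other set fell by 2.73. Nsdhl, of the demethylation of lanosterol, read 11.02, 10.90 and 10.57 in sham and 9.92, 9.88 and 9.82 at 24 h (1.94-fold lower, adjusted p = 0.0176, 7 fits). Cyp51, the lanosterol demethylase itself, fell 1.80-fold, from 11.86, 11.66 and 11.50 to 10.83, 10.53 and 11.12 (adjusted p = 0.0392, 1 fit).

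Sc5d, a desaturase late in the pathway, fell 1.78-fold, from 9.67, 9.90 and 9.63 to 8.91, 8.86 and 8.95 (adjusted p = 0.0387, 2 fits). Another of its sets fell by 2.05 and the remaining set differed by 0.00. The rank product called 1 of the 21 members lower, Idi1 (adjusted p = 0.001), and did not call Nsdhl, Cyp51 or Sc5d. Without 24 h A, 2 members were called, and Cyp51 and Sc5d were not. Calls numbered 2 without 48 h B, 1 without sham A and 0 without 24 h B or sham B. Insig1, a sensor protein that holds back the sterol-responsive transcription factors, was lower by 1.04 and not called (adjusted p = 0.0558). Fdft1 and Hmgcs1 were lower by 1.05 and 0.56 and not called (adjusted p = 0.145 and 0.106). In liver the same list had a median difference of -2.67. The difference between the tissues was called for Idi1, Nsdhl, Cyp51 and Sc5d, each lower in liver by 1.73 to 1.97 more than in kidney (adjusted p = 1.65e-04 to 0.0288).

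**Figure D5:**
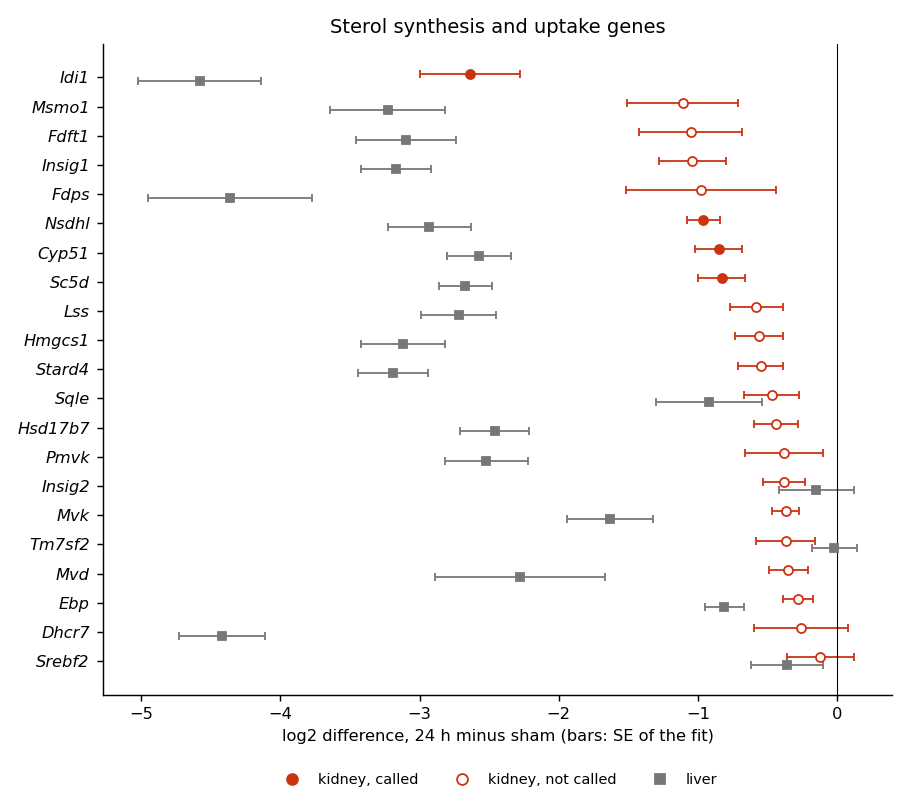
Log2 difference between 24 h and sham (x axis) of the 21 tested genes of sterol synthesis and uptake in kidney (circles, filled where called) and liver (squares), with bars for the SE of each fit. All kidney circles lie left of 0, with Idi1 at -2.64, and the liver squares of Idi1 (-4.58), Nsdhl (-2.93), Sc5d (-2.67) and Cyp51 (-2.57) lie farther left than their circles.

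The promoters of the 4 sterol genes that fell are shown for the letters they share. Capitals mark CCAAT, the box bound by NF-Y, or its reverse complement ATTGG, in the same RefSeq windows.
Idi1 (chr13:8885356-8885655, plus strand): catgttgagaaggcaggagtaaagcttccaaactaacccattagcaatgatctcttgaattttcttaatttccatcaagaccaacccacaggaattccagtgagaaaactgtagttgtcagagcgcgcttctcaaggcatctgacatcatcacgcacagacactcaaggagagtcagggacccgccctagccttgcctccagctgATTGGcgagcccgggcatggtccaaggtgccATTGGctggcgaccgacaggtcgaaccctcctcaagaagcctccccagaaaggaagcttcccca
Nsdhl (chrX:72918271-72918570, plus strand): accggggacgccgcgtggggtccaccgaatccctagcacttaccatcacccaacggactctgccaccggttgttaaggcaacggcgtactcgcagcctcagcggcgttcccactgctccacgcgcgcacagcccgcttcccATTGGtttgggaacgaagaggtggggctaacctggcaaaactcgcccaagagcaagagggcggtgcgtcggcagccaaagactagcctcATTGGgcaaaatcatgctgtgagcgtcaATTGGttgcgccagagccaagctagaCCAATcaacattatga
Cyp51 (chr5:4104648-4104947, minus strand): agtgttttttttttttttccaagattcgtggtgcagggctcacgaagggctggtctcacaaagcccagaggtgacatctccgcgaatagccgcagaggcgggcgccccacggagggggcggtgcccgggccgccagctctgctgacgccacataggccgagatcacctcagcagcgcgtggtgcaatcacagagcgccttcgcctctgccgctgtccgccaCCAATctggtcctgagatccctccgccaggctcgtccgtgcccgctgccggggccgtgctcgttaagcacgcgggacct
Sc5d (chr9:42264251-42264550, minus strand): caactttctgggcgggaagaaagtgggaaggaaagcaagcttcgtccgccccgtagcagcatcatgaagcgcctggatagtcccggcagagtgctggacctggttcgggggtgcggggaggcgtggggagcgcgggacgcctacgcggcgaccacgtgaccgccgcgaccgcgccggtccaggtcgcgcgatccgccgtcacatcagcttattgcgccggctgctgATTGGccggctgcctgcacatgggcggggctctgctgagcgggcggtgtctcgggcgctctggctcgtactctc
The Idi1 window held 2 matches, that of Nsdhl 4 and those of Cyp51 and Sc5d 1 each. Of the 21 tested sterol genes, 17 had a promoter in the RefSeq table, and 16 of these windows held a CCAAT match, against 37.4% of all windows. A GC box was found in 15 of the 17, against 35.7%. The 9-base pattern TCACNCCAC, 1 form of the sterol regulatory element, was found in 1 of the 17, against 1.24%. A match names letters in a window and no bound site.

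Among 25 tested genes of fatty acid oxidation and ketone metabolism, 3 rose and 22 were not called, with a median difference of 0.41. Besides Cyp4a14 these were Eci1, a mitochondrial enoyl-CoA isomerase, from 10.70, 10.45 and 10.83 to 11.77, 12.08 and 11.99 (2.44-fold, adjusted p = 0.0149, 8 fits), and Hadha, a subunit of the trifunctional protein, which rose 1.46-fold (adjusted p = 0.0232, 5 fits). The peroxisomal isomerase Eci3 went the other way, from 13.33, 13.10 and 13.31 to 12.39, 12.06 and 12.34 (1.98-fold lower, adjusted p = 0.0149, 9 fits). Acot1, an acyl-CoA thioesterase, was higher by 1.39 and not called by limma (adjusted p = 0.1), though the rank product called it (adjusted p = 0.0232). The list had 1 call without 24 h B, sham A or sham C and 0 without sham B. Pdk4 and Angptl4, both induced by fasting, varied widely among the sham arrays (5.92 to 9.36 and 7.24 to 10.19) and were not called. Of 20 glucocorticoid and fasting response genes limma called 0, with 3 at an unadjusted p under 0.05. The rank product called 1, Zbtb16, higher (adjusted p = 0.0141), with 2.67, 2.48 and 6.64 in sham and 5.4, 6.36 and 5.14 at 24 h, groups that overlapped.

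Small falls were called in lists of proximal tubule metabolism, with counts that depended on scaling and on single arrays. Of 24 tested genes of amino acid breakdown and creatine, 4 fell: Kmo and Haao of tryptophan breakdown, Odc1, the ornithine decarboxylase, and Agxt2, an aminotransferase. Kmo read 10.97, 10.85 and 11.05 in sham and 10.34, 10.32 and 10.48 at 24 h, and it fell by 0.58 (adjusted p = 0.0172, 6 fits). The others fell by 0.44 to 0.66. The rank product called 0 of the 24 lower and 2 higher, among them Hpd (difference 1.40, adjusted p = 0.0226). After quantile normalization 2 of the 24 fell. Calls numbered 2 without 24 h A or sham C, 1 without 48 h B and 0 without 24 h B, sham A or sham B. Of 20 carriers of organic anions and bile acids, 3 fell: besides Slc51a, Slco1a6 fell by 0.74, from 13.55, 13.75 and 13.75 to 12.84, 12.90 and 13.07, and the organic cation transporter Slc22a2 by 0.50 (adjusted p = 0.0206 and 0.0363). The partner subunit Slc51b was lower by 0.70 and not called (adjusted p = 0.158). Calls of carriers numbered 1 without 24 h C, 48 h B or sham A and 0 without 24 h B, sham B or sham C.

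Of 25 subunits of oxidative phosphorylation, 3 fell by 0.24 to 0.43 (Cox5a, Ndufb5 and Uqcrc2), and no other set of these genes was called in a fit over every probe set. After quantile normalization 1 of the 25 fell. Calls numbered 1 without 48 h B and 0 without 24 h B, sham A or sham B. Of 32 proximal tubule genes, 1 fell, a share near the 3.09% of all genes called lower. It was Slc5a8, a monocarboxylate cotransporter, from 13.24, 13.24 and 13.26 to 12.03, 12.25 and 12.54 (1.96-fold, adjusted p = 0.0223, 5 fits). The phosphate carrier Slc34a1 read 14.49 to 14.85 in all 6 arrays and differed by -0.09. The list's median difference was -0.11, and it was 0.03 after quantile normalization, with 17 members higher and 15 lower by sign. The summed level of the 32 genes was 18.94 to 19.11 in sham and 18.83 to 18.89 at 24 h.

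Drug-metabolising enzymes moved both ways. Of 18 tested, 2 rose and 1 fell. Cyp2d22, a cytochrome P450, rose 2.82-fold, from 6.78, 6.92 and 6.69 to 8.47, 8.13 and 8.28 (adjusted p = 0.0121, 9 fits), and its other set rose by 2.31. Ephx1, the microsomal epoxide hydrolase, rose 2.08-fold (adjusted p = 0.0470, 0 fits). Inmt, a methyltransferase of indoles, fell 2.28-fold, from 13.38, 13.72 and 14.12 to 12.68, 12.64 and 12.33 (adjusted p = 0.0245, 7 fits). The list had 1 call without 24 h B or sham B. Among 23 antioxidant genes controlled by NRF2, 4 rose (Cbr1, Srxn1, Nqo1 and Ephx1) and 2 fell (Me1 and Taldo1), against 5.30% of all genes called. Cbr1, a carbonyl reductase, read 8.97, 8.41 and 8.17 in sham and 10.25, 10.19 and 9.85 at 24 h (2.99-fold, adjusted p = 0.0206, 7 fits). Srxn1 rose 1.63-fold and Nqo1 1.24-fold, and Hmox1, haem oxygenase 1, was lower in all 3 24 h arrays (8.16, 8.81 and 8.38 against 8.88 to 9.35) and was not called (adjusted p = 0.263). The list thus had no common direction, with 11 members higher and 12 lower by sign. Its 6 calls were 3 without 24 h C, sham C or any of the 48 h arrays, 2 without 24 h A, 1 without 24 h B or sham A and 0 without sham B.

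Of 20 tested genes of the ATF4 response and serine synthesis, Asns rose and Shmt2 and Chac1 fell, beside 5.30% of all genes called. Atf4 was called lower on its set of highest mean, with sets that disagreed as given above. The 4 calls were 2 without 24 h B, 1 without sham A or sham C and 0 without sham B. Chac1 is a target of ATF4 that degrades glutathione, and it went from 5.25, 5.51 and 5.53 to 4.87, 4.93 and 4.87 (at least 1.46-fold lower, adjusted p = 0.0223, 6 fits). In the interferon list 1 of 23 genes rose, a share near the 5.30% of all genes called, and 3 rose after quantile normalization or centring. It was Ifit1, from 2.38 to 2.97 in sham to 3.50 to 4.50 at 24 h (at least 2.69-fold, adjusted p = 0.0481, 0 fits). Ier3 rose 2.70-fold as the only call among 19 immediate early genes, also a share near 5.30% (adjusted p = 0.0234, 5 fits). Casr, the calcium-sensing receptor, rose 2.13-fold (adjusted p = 0.0259, 4 fits). In the uridine list the nucleoside transporter Slc29a1 rose 1.95-fold and Upb1, of pyrimidine breakdown, fell 1.42-fold, while Upp1 was not called (adjusted p = 0.338). The uridine calls numbered 1 without 48 h C or sham C and 0 without 24 h A, 24 h B, 48 h B, sham A or sham B.

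Of the 51 gene lists, 25 had 0 members called by limma, and 7 of these 25 had a rank product call. They included chemokine and NF-kB genes (0 of 14 called, 1 at an unadjusted p under 0.05), heat shock (0 of 18, 6), chaperones of the endoplasmic reticulum (0 of 20, 3), proteasome subunits (0 of 25, 8), hypoxia response (0 of 19, 3) and vasoactive genes (0 of 15, 7). Arg2, an arginase of that last list, read 3.81, 3.54 and 4.26 in sham and 6.16, 7.44 and 6.23 at 24 h, without overlap. Its difference of 2.74 ± 0.67 SE was not called by limma (adjusted p = 0.0651) and was called by the rank product (adjusted p = 0.000714). In the circadian list 1 of 18 fell, a share near the 5.30% of all genes called. It was Nr1d2, which fell by 0.80 (adjusted p = 0.0363), and Dbp was lower by 0.62 and not called. Of 28 tested cell cycle genes limma called 0, 1 reached an unadjusted p under 0.05, and 27 were lower by sign with a median of -0.79. The rank product called 7 of them lower, Mki67, Ccnb2, Ccne2, Cdk1, Cdc20, Rrm2 and Birc5 (adjusted p = 0.00722 to 0.0272). Mki67 read 3.53, 5.48 and 2.42 in sham and 2.27, 2.24 and 2.21 at 24 h, so the 24 h arrays were at the floor and the sham arrays differed among themselves.

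Limma called 0 of 13 macrophage, 0 of 3 neutrophil and 0 of 3 lymphocyte markers tested, with 2, 0 and 0 at an unadjusted p under 0.05, and the rank product called 0. Of 11 named neutrophil markers, 9 read within 1 of the floor in all 9 kidney arrays, as did 8 of 10 lymphocyte markers. The summed macrophage level was 11.45 to 11.70 in sham and 11.32 to 11.83 at 24 h. The summed endothelial level was 12.25 to 12.41 in sham and 12.53 to 12.98 at 24 h, without overlap (as in 27.0% of all genes), with 0 of 15 members called (1 after quantile normalization or centring) and 14 higher by sign (11 after centring). Among pancreas markers, Cela1, an elastase also read at 9.78 to 11.32 in liver, read 12.12 to 12.71 in sham and 10.74 to 11.94 at 24 h and was not called by limma (adjusted p = 0.0748), though the rank product called it lower (adjusted p = 0.0382). Alas2, the haem synthesis enzyme of erythroid cells, read 4.31, 4.97 and 5.28 in sham and 7.16, 5.18 and 6.35 at 24 h. Its groups overlapped, limma did not call it (adjusted p = 0.278), and the rank product called it higher (adjusted p = 0.0428). The summed level of the 2 named erythroid markers was 4.61 to 5.44 in sham and 5.35 to 7.21 at 24 h. The acinar genes Cpa1 and Ctrb1 read 2.21 in all arrays. Of 11 tested hepatocyte markers, Hrg, histidine-rich glycoprotein, fell 2.46-fold, from 5.23 to 5.74 in sham to 4.01 to 4.31 at 24 h (adjusted p = 0.0166, 8 fits), and 10 were not called by limma. The rank product called Hrg lower (adjusted p = 0.0234) and Serpina1c higher (difference 1.95, adjusted p = 0.00346). The part of these cell types in the differences was not tested.

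In each of the 9 leave-one-out fits the same 13 genes were called. Besides Serpina1b, Hoxd9, Fgg, Tnfrsf12a, Wnk4, Cyp2d22 and Eci3, they were Asb11, Fkbp11, Fcgrt and Inpp5a, which rose, and Gphn and Atxn10, which fell. Fcgrt, the neonatal Fc receptor that salvages albumin and immunoglobulin G, read 10.65, 10.43 and 10.83 in sham and 11.64, 11.57 and 11.73 at 24 h (2.02-fold, adjusted p = 0.0149). Asb11, a substrate adaptor of ubiquitin ligases, read 2.93, 2.74 and 2.53 in sham and 4.13, 4.54 and 4.24 at 24 h (at least 2.97-fold, adjusted p = 0.0100). Inpp5a, an inositol phosphatase, rose 2.38-fold and Fkbp11, a prolyl isomerase of the secretory pathway, at least 2.70-fold (both adjusted p = 0.0100). Other sets of Fkbp11 differed by -0.03 and -0.01. Gphn, gephyrin, needed for molybdenum cofactor synthesis, fell 1.83-fold, from 11.37, 11.12 and 11.28 to 10.35, 10.43 and 10.37 (adjusted p = 0.0100). Atxn10 fell by 0.49 on its main set, while another of its sets rose by 0.30 in a fit over every probe set, so its sets disagreed.

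The 48 h kidneys were read beside these levels. Against 24 h, 194 of 11990 genes (1.62%) were called, 115 of them higher at 48 h (0.959%). Both comparisons share the 24 h arrays, so their values are given side by side and no overlap is read from them. The largest differences upward from 24 h to 48 h were those of Nusap1, a mitotic spindle protein (4.13), Syn3 (3.19) and Igfbp1 (2.69), and downward those of Mfsd2a (-3.58), Slc25a25 (-3.18) and Bdnf (-1.89). Igfbp1, an insulin-like growth factor binding protein, read 8.32, 8.45 and 9.28 in sham, 7.75, 7.27 and 7.72 at 24 h and 10.36, 10.13 and 10.34 at 48 h. At 24 h it was lower than sham and not called (adjusted p = 0.0606), and at 48 h it was above every sham and 24 h reading (48 h against 24 h adjusted p = 0.0175).

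The genes below were chosen by their 24 h readings, and that choice favours a move back when the same arrays are compared with 48 h. Their 48 h against 24 h p-values are therefore no separate support for a return. Among the genes that rose at 24 h, Tnfrsf12a (6.54 to 6.66 at 48 h), Fgg (8.97 to 9.05), Asns (6.48 to 7.07), Cd14 (4.08 to 4.30) and Fcgrt (10.90 to 11.07) read lower at 48 h than at 24 h (adjusted p = 0.0189 to 0.0394). Serpina1b (7.82 to 7.94 at 48 h), Hoxd9 (10.43 to 10.70), Wnk4 (10.74 to 10.88), Cyp2d22 (8.07 to 8.50) and Lgals3 (10.78 to 11.08) were not called between 24 h and 48 h and lay above all sham arrays. Lcn2 read 7.38, 6.46 and 5.31 at 48 h (difference from 24 h -2.30, adjusted p = 0.162). Among those that fell, Ftcd, Zc3h12c, Akr1d1, Ccdc122, Inmt, Kmo and Eci3 read higher at 48 h than at 24 h (adjusted p = 0.00985 to 0.0430). Slc51a (7.64 to 8.14), Ggct (8.96 to 9.31), Agps (10.67 to 10.82) and Idi1 (10.34 to 11.38) stayed below all sham arrays and were not called between the times. The number of 48 h against 24 h calls ran from 1 (without 48 h A) to 162 (without 24 h A) when 1 array was left out. It was 15 without 48 h B, 21 without 48 h C, 26 without 24 h C, 54 without sham B, 76 without sham A and 111 without 24 h B.

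The kidney differences were set against those of liver in a fit of all 18 arrays. The difference between the responses was called for 3666 of the 11990 kidney genes (30.6%), in a setting in which liver itself had 5089 calls (42.4%). Cyp8b1, of bile acid synthesis, Lcn2 and Cyp17a1 had the largest differences with kidney above liver, at 8.92, 7.17 and 6.74. The liver mean of Lcn2 went from 13.01 in sham to 10.6 at 24 h, and this fall is part of its difference. Cyp8b1 and Cyp17a1 read 2.21 to 2.55 in all kidney arrays, so their differences are those of liver. For Cdkn1a, Cbr3 and Epm2aip1 the difference was -6.44, -6.10 and -5.92, with liver responses of 7.16, 7.17 and 6.09 against kidney differences of 0.72, 1.07 and 0.16. Tnfrsf12a rose in kidney by 1.38 against 5.51 in liver, and Lgals3 by 1.28 against 3.80 (difference adjusted p = 2.56e-06 and 0.00359). Serpina1b differed by 4.21 in kidney and 0.02 in liver, and Kcnj10 by 2.92 against -0.03 (adjusted p = 1.34e-09 and 3.68e-05). In sham and 24 h liver Serpina1b averaged 15.67 and 15.69, near the level of Alb (16.22 to 16.56). Kcnj10 averaged 4.01 and 3.98 there. Whether a liver response could be read at such high or low levels was not tested. The Scnn1a response exceeded that of liver by 2.84 (adjusted p = 2.25e-04). The liver mean of Scnn1a went from 6.73 in sham to 4.94 at 24 h, and this fall is part of the difference. Scnn1b read 2.64 to 2.68 and Scnn1g averaged 2.94 and 2.90 in liver, within 1 of the floor, so no response of liver is measured for these subunits.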

How the data were processed

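The authors deposited log2 expression values per probe set for 18 Affymetrix mouse whole-genome arrays, made with gcRMA in R per the labels and the design text (GCRMA is also named in the submitters' processing notes). These deposited log2 values were used as given. Of 45101 probe sets, 34945 were named for 1 gene by the platform annotation, 932 for several and 9160 for none, beside 64 control sets. Genes above the array median in at least 3 of 9 kidney arrays were fitted with limma 3.58.1 (R 4.3.3; lmFit, eBayes with a mean trend, group means of 9 kidney arrays), with Benjamini-Hochberg adjustment over all 11990 genes. Kidney was set against liver in a fit of 18 arrays. Genes named by rule are the 15 largest called rises and falls without overlap of the groups (predicted genes and clones skipped), up to 4 called members of each list by smallest p, 3 genes each way in the other comparisons, and a panel of known genes. Genes named for being called in all 9 leave-one-out fits, and further list members given beside a result, were chosen after their values were seen. The members and the 51 lists were chosen with earlier results of these data known. "Called" with no tool named means by limma. Alternatives covered the filter, probe sets, normalization, model, rank product, the replicate letter as a block and each array left out. In simulated data of 11990 genes, 76% of genes raised by 1 log2 unit and 26% of those raised by 0.5 were called. The changed genes all lay well above the floor in sham. Noise was drawn for each gene on its own, with no deviation shared within an array. These shares may therefore not hold for genes of low level or where an array stands apart. The number of arrays limits the precision.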

Additional observations from a re-analysis of the deposited data

Results flagged for a closer look

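For the following named genes the 24 h response differed between kidney and liver by the interaction term of the 18-array limma fit. Values are the kidney difference minus the liver difference on the log2 scale. Among genes that rose in kidney, it was 7.17 for Lcn2, 4.19 for Serpina1b, 3.71 for Dio1, 3.12 for Slc25a25, 2.95 for Kcnj10, 2.62 for Asns and 2.52 for Cables1. It was 2.34 for Tmem37, 2.03 for Smarcd3, 1.98 for Fgg, 1.83 for Ier5l, 1.81 for Vstm5 and 1.78 for Hoxd9. The sodium channel subunits Scnn1a and Scnn1b had 2.84 and 1.46. Liver means went from 13.01 in sham to 10.6 at 24 h for Lcn2, 12.79 to 10.92 for Dio1 and 6.73 to 4.94 for Scnn1a. These falls in liver are part of their values. Serpina1b averaged 15.67 and 15.69 in sham and 24 h liver, and Kcnj10 4.01 and 3.98. Whether a liver response could be read at such high or low levels was not tested. The mean liver levels of Smarcd3, Ier5l, Vstm5, Hoxd9, Scnn1b and, among the falls, Hepacam2 were within 1 of the floor in both liver groups, so their values are those of kidney set against an unmeasured liver response. Tnfrsf12a rose in both tissues and had -4.13, the response of liver being the larger.

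Among genes that fell in kidney, it was -2.97 for Btnl9, -2.24 for Hepacam2, -2.1 for Slc51a, -2.06 for Ugt2b5, -1.77 for Agps and -1.72 for Zc3h12c. Idi1 and Ddo had 1.94 and 1.71, each lower in liver by more than in kidney. Genes not called in kidney also differed between the tissues: Cdkn1a by -6.44, Hmox1 by -4.40, Dbp by 2.62, Aqp2 by 2.16 and Avpr2 by 1.85. In sham and 24 h liver, Aqp2 averaged 3.85 and 4.07 and Avpr2 3.38 and 2.82. Whether a liver response could be read at these low levels was not tested. The labels do not state whether liver and kidney arrays of the same letter came from 1 mouse.

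Of 2414 tested probe sets that are named for no single gene, 56 were called between 24 h and sham kidney, 26 higher and 30 lower. Of the named genes tested, 5.30% were called. An unadjusted p under 0.05 was reached by 432 of these sets. The largest called difference among them was a rise of 5.94 (limma adjusted p = 0.00905), larger than the 4.76 of Lcn2. These sets enter none of the comparisons above.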

How the results depend on the processing

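The main count of 636 calls between 24 h and sham kidney was 285 with no filter, 78 with the 6 compared arrays alone, 376 in the fit of 18 arrays and 171 by the rank product named in the design text (70 of them among the 636). With 1 array left out it ran from 15 to 677, and the 48 h against 24 h count ran from 1 to 162. Other settings gave 554 to 918 calls (888 with a minimum value of 5, an alternative chosen after seeing the data). With the replicate letter as a block, 143 genes were called (134 of the 636) and 4 between 48 h and 24 h. Residuals of arrays that share a letter correlated at -0.125 to 0.23. Pairs of different letters were not set beside them, so what a shared letter stands for cannot be told from these values. The 48 h against 24 h count was 19 with those 6 arrays alone. The 3666 kidney and liver differences were 3358 with the letter block, 3650 with a filter in both tissues and 3733 after quantile normalization. Of 1820 values of 87 called named genes under the alternatives, 1279 stayed called, 541 were no longer called and 0 changed sign. For genes chosen for groups without overlap, a change of sign was not possible with 1 array left out. Of the uncalled named genes, 17 values were called. Values near the floor carry no order, so depth of signal limits genes such as Havcr1, Fgb and Mki67.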
